A study of Corylus heterophylla with 6 samples.

Results

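The ChARF3 peaks of early ovule growth (Ov2.1) were all 1364 regions of the peak list deposited for that stage, out of 3669 regions in the lists of the 3 stages. No region was added or left out here, so no choice was made among the deposited peaks. The peak calling itself kept only regions whose signal passed a limit, so the strengths described below are those of selected regions. ChARF3 is an auxin response factor of hazel. Chromatin immunoprecipitation followed by sequencing (ChIP-Seq) pulls down DNA fragments cross-linked to a protein with an antibody, and a region where more fragments pile up than in the input library, made without the antibody, is called a peak. The list rests on 1 ChIP library and 1 input library of Ov2.1 ovules, and the reference lists hold 1412 peaks of ovule formation (Ov1.1) and 893 of rapid ovule growth (Ov3.1), each called against its own input. With no replicate at any stage, no test was possible, and every value below describes these libraries. Intervals are exact 95% intervals and cover counting error only.

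Auxin response factors are DNA-binding proteins that read out the hormone auxin, and the family holds activators and repressors. When auxin is low, Aux/IAA proteins keep the activators silent at their targets, and when auxin rises the Aux/IAA proteins are degraded. Typical targets are the Aux/IAA and SAUR genes, and in model plants the family shapes flowers, ovules and fruits. The ovule holds the egg cell, and after fertilization it becomes the seed, in hazel the kernel of the nut. Hazel is unusual because the ovary starts to form only after pollination.

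The Ov2.1 ovules had already been fertilized. Only medium-sized ovules of the stage were taken, and they were fixed in formaldehyde. The antibody was a polyclonal antibody against ChARF3, used in the ChIP library and not in the input. The labels give the cultivar of all samples as "wild germiplasm" of Corylus heterophylla, whereas the methods of the study name a hybrid of C. heterophylla and C. avellana called Dawei, with the reads aligned to the C. heterophylla genome. A whole ovule holds seed coat, embryo and endosperm cells, so the list does not say in which cells ChARF3 was bound. Peak positions are 1-based on the contigs named in the list. No genome sequence was used here, and no peak sequence is shown.

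Most Ov2.1 peaks rested on very few DNA fragments. The fold enrichment of a peak, a linear ratio of ChIP to input-derived background, and its p-value were solved together for the number of ChIP fragments at the summit. By this, 513 peaks had 3 fragments (37.6% of the list), 455 had 4, 247 had 5 and 89 had 6. Only 15 peaks had 10 or more fragments, and 13 of these lay on contig tig00007282. The lowest background, 0.195 fragments, was also the commonest and stood behind 309 peaks (22.7%, Clopper-Pearson interval 20.5% to 24.97%). At that background the deposited fold enrichment could take only a few values: 3.35 in 176 peaks with 3 fragments, 4.18 in 87 peaks with 4 and 5.02 in 33 peaks with 5. At this background 1 fragment more therefore moved the fold enrichment by 0.837. The q-value, the p-value adjusted for the number of positions tested, was 0.0309 for the 176 peaks and 0.00462 for the 87.

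A number of 3 fragments has an exact Poisson interval of 0.619 to 8.77, and 8 fragments one of 3.45 to 15.8. These intervals overlap, so peaks of 3 to 8 fragments are not ranked here by fold enrichment. The overlap is not a test of a difference, and the intervals take no account of the limit used in calling. Over the list the median fold enrichment was 3.86 (order-statistic interval 3.80 to 3.92), the middle 50% of peaks ran between 3.35 and 4.41, and the extremes were 3.13 and 28.5. A fold enrichment of at least 4 was reached by 568 of 1364 peaks, or 41.6%, and a q-value of at most 0.01 by 619, or 45.4%. The least certain peak had a q-value of 0.0498, just inside the limit of 0.05 used in calling. Without contig tig00007282 the median fold enrichment was 3.84 (3.78 to 3.91) and the largest value 12.6.

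The peaks were spread over 259 contigs, with a median of 3 peaks per contig. A single peak was found on 61 contigs (23.6%, interval 18.5% to 29.2%), and 37 contigs with at least 10 peaks held 621 peaks. The contigs with most peaks were tig00007002 with 32, tig00007111 with 31, tig00007008 and tig00007112 with 27 each, and tig00006992 with 25. The contigs tig00007282 and tig00007370 also had 25. Contig lengths were not used here, and the span of a contig was taken as the largest coordinate in any of the 3 lists, which is a lower bound. Peak number followed span, with a Spearman rho of 0.84 and a Pearson r of 0.92 over 323 contigs. This is a description over contigs, in which both measures grow with contig length and the spans come in part from the Ov2.1 peaks themselves.

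Per Mb of span there were 10.8 peaks on tig00007282 (exact Poisson interval 7.01 to 15.99) and 4.38 on the other contigs (4.15 to 4.62). Among the 96 contigs with a span of at least 1 Mb, this was the highest density, and the median was 4.28. The next was tig00007302 with 17 peaks and 9.56 per Mb (5.57 to 15.3), an interval that overlaps that of tig00007282. On tig00007302 there were 17 Ov2.1 peaks, against 1 at Ov1.1 and 7 at Ov3.1. On tig00007112 there were 27 Ov2.1 peaks, against 49 at Ov1.1 and 21 at Ov3.1. Over the 96 contigs the density of Ov2.1 peaks had a Spearman rho of 0.10 with that of Ov3.1 peaks and -0.17 with that of Ov1.1 peaks, values that rest on few peaks per contig. The 64 contigs with no Ov2.1 peak were short, with a span of at most 0.720 Mb.

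**Figure D1:**
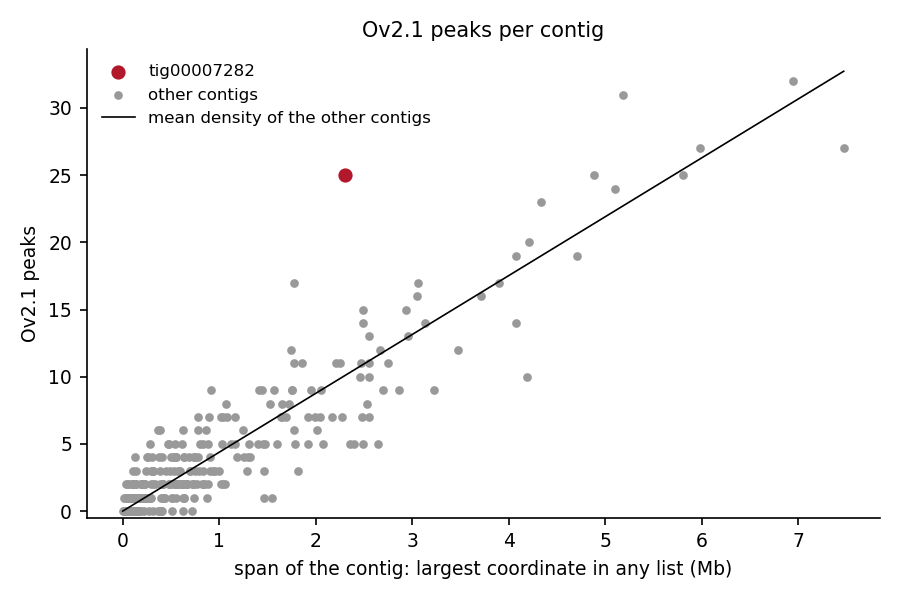
Number of Ov2.1 peaks (vertical axis) against the span of the contig in Mb (horizontal axis), 1 point per contig for the 323 contigs found in any list. The line is the mean density of the other contigs, 4.38 peaks per Mb, and the point of tig00007282 (25 peaks) lies far above it.

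The gap between neighbouring Ov2.1 peaks depends on how many peaks a list holds, 4.38 per Mb outside tig00007282, as well as on their placement. The median gap, counted as the bases between the end of a peak and the start of the next, was 134723 bp over 1105 gaps (order-statistic interval 121306 to 147836). The middle 50% of gaps ran between 49292 and 284171 bp, the smallest was 358 bp and the largest 1698043 bp. Without tig00007282 the median was 136459 bp over 1081 gaps (122611 to 149515). The median gap was 98628 bp at Ov1.1 (89180 to 109918) and 183235 bp at Ov3.1 (156266 to 213207). The lists are not alike in fragments per peak or in length. The study reports similar numbers of clean reads for the ChIP libraries of all stages, and more mapped reads at Ov2.1 than at Ov1.1. Fragment numbers per peak thus do not follow library size, and the reason was not tested. The median fragment number of a peak was 4 at Ov2.1, against 17 at Ov1.1 and 3 at Ov3.1, and the median background was 0.256 fragments at Ov2.1, against 4.46 at Ov1.1 and 0.153 at Ov3.1. With 1 ChIP library each, the stages cannot be ranked by these gaps.

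Close neighbours were counted without a comparison to randomly placed peaks, so the shares below are not a result about placement. Another peak within 10 kb was found for 129 Ov2.1 peaks, or 9.46% (Clopper-Pearson interval 7.96% to 11.1%), and without tig00007282 for 114 of 1339, or 8.51% (7.07% to 10.1%). The share was 19.5% at Ov1.1 (17.4% to 21.6%) and 8.06% at Ov3.1 (6.36% to 10.05%). These shares describe 3 lists with unlike fragment numbers per peak and do not rank the stages. Of the 8 gaps under 1 kb, 5 lay on tig00007282. Linking peaks whose gaps were at most 10 kb gave 59 groups of at least 2 peaks, of which 5 had 3 or more. These were 3 groups of 6, 4 and 5 peaks on tig00007282, a group of 3 on tig00002373 and a group of 3 on tig00007008.

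**Figure D2:**
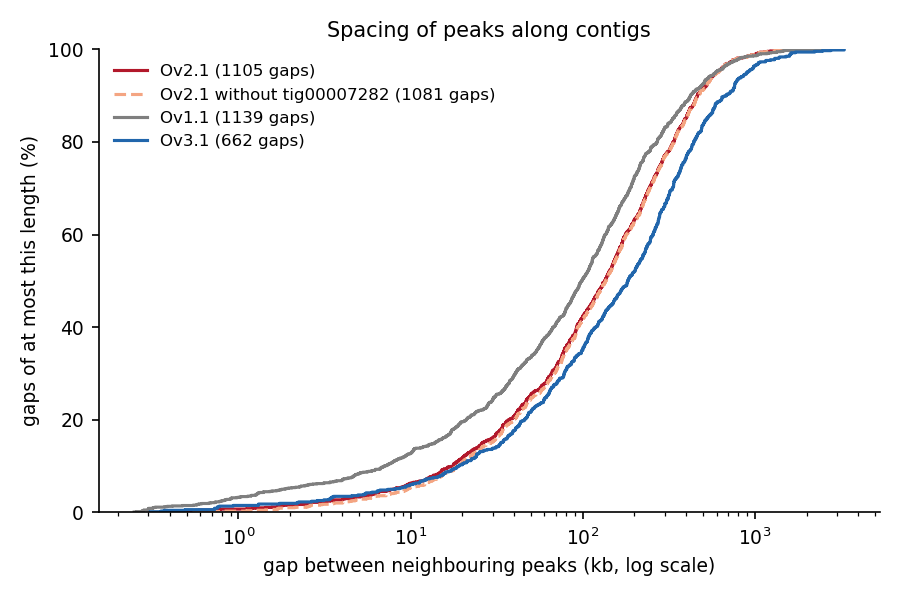
Cumulative share of gaps (vertical axis, %) against the gap between neighbouring peaks (horizontal axis, kb, log scale), for the Ov2.1 list with and without tig00007282 and for the Ov1.1 and Ov3.1 lists. The Ov2.1 curve lies between the others over most of its length and hardly moves without tig00007282, with medians of 134723 and 136459 bp.

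Outside tig00007282, 58 gaps were under 10 kb, and in 34 of them both peaks had the same closest gene in the annotation of the study. The 3 shortest were 540 bp on tig00007130, 592 bp on tig00006951 and 787 bp on tig00006888. The first of these pairs, tig00007130:1097061-1097494 and tig00007130:1098035-1098418, had fold enrichments of 4.52 and 4.63 with 5 fragments each, and both were assigned to the promoter of Cor0141110.1. None of the peaks in these 58 pairs had more than 8 fragments. Of the 1253 closest genes, 77 had 2 or more peaks and 8 had at least 3. Without tig00007282 those numbers were 73 and 6 of 1236 genes. Cor0051880.1 and Cor0051890.1, neighbours by their numbers, had 3 peaks each on tig00007094, 5 of the 6 in introns and none with more than 5 fragments.

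The peaks of the Ov2.1 list were wider on the median than those of the other lists, which rest on single libraries with other fragment numbers per peak. The median width was 454 bp (order-statistic interval 441 to 466), against 330 bp at Ov1.1 (324 to 336) and 333 bp at Ov3.1 (325 to 339). The narrowest peak had 319 bp at Ov2.1, against 245 bp at Ov1.1 and 272 bp at Ov3.1, so the lists also differed in their smallest width. The middle 50% of Ov2.1 peaks ran between 368 and 596 bp. Without tig00007282 the median was 452 bp (440 to 464) and the widest peak 1515 bp. Peaks over 1000 bp numbered 31 (2.27%, interval 1.55% to 3.21%), 8 of them on tig00007282, against 8 of 1412 at Ov1.1 and 8 of 893 at Ov3.1. The fragment length set in peak calling is not known from the sources used here, and its part in the widths was not tested.

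Peaks with more fragments tended to be somewhat wider. The Spearman rho of width with fragment number was 0.15 over 1364 peaks and 0.13 without tig00007282, given as a description over peaks of 1 library. Peaks with 3 fragments had a median width of 440 bp (422 to 462), those with 4 of 436 bp (421 to 453), those with 5 of 479 bp (455 to 524) and those with 6 of 527 bp (435 to 615). The 15 peaks with 10 or more fragments had a median of 1356 bp (627 to 2179), and the 2 of them outside tig00007282 one of 398.5 bp. The 5 widest peaks outside tig00007282 rested on 4 to 6 fragments. The widest, tig00007059:2227629-2229143, spanned 1515 bp with 4 fragments and a fold enrichment of 4.18. It was followed by tig00007302:1127491-1128890 with 1400 bp, tig00007350:239983-241292 with 1310 bp, tig00006939:344895-346181 with 1287 bp and tig00007103:3668550-3669824 with 1275 bp. Of these 5, the peak on tig00007302 was in an intron and the other 4 were distal intergenic.

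**Figure D3:**
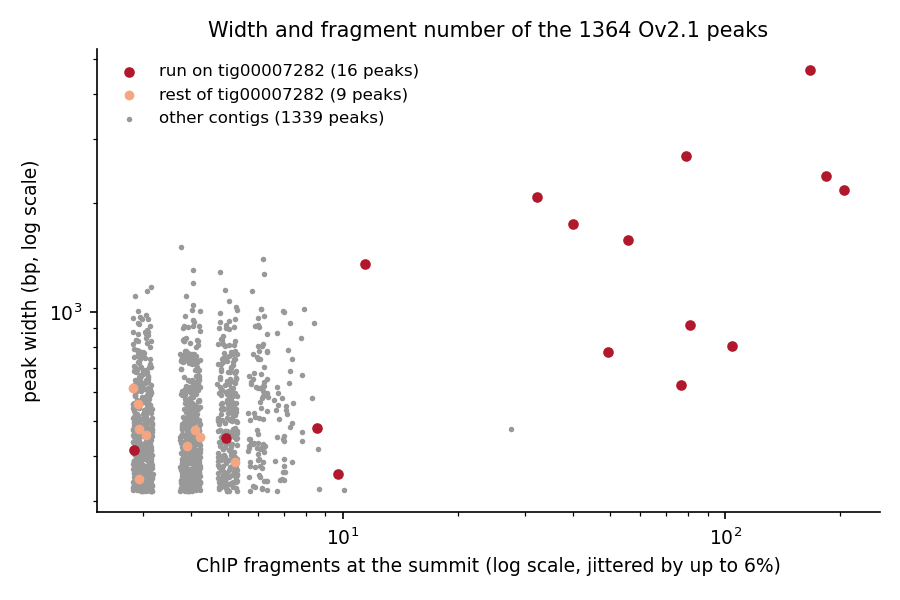
Peak width in bp (vertical axis, log scale) against the number of ChIP fragments at the summit (horizontal axis, log scale, jittered sideways by up to 6%), 1 point per Ov2.1 peak. The run on tig00007282 takes up nearly all points above 10 fragments, while the 1339 peaks of other contigs stay at 26 fragments or fewer and at widths of at most 1515 bp.

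The strongest signal of the list was a run of peaks on contig tig00007282. Linking the peaks of this contig whose gaps were at most 100 kb gave 16 peaks between positions 1354658 and 1511476, a stretch of 157 kb. The gap to the peak before the run was 231051 bp and to the one after it 381095 bp. The run held 1099 of the 6574 summit fragments of the whole list, or 16.7% (interval 15.8% to 17.6%). The whole contig held 1131, or 17.2% (16.3% to 18.1%), with 1.83% of the peaks (1.19% to 2.69%). The intervals of the 2 fragment shares are too narrow. They count each fragment as independent, but the fragments are bunched in few peaks, 205 of them in 1 peak. Of the 17 peaks of the list with a fold enrichment of at least 7, 12 lay in the run. Peaks covered 15.0% of its length.

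The run began with an isolated peak, tig00007282:1354658-1355073, that looked like the rest of the list, with 3 fragments and a fold enrichment of 3.35, in an intron. Then 4 peaks lay close together at the genes Cor0087690.1 and Cor0087700.1. The peak at 1369113-1369469 had 10 fragments and a fold enrichment of 6.77. The next, 1370677-1372754, had 31 fragments and 12.9. The peak at 1373173-1374092 had 80 fragments and 9.54, and the one at 1374851-1376206 had 12 fragments and 8.06. All 4 were classed as promoter within 1 kb.

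Cor0087710.1 was the closest gene of the next 5 peaks, more than any other gene of the list had. The widest peak of the list, 1384499-1389157, spanned 4659 bp at its promoter with 168 fragments and a fold enrichment of 7.36. The peak with most fragments, 1391214-1393392, had 205 (exact Poisson interval 178 to 235) and a fold enrichment of 10.3. After a gap of 32293 bp came 1425686-1427266 with 58 fragments and 16.5. It was followed after 567 bp by the peak of highest fold enrichment, 1427834-1428639, with 101 fragments (82.3 to 123) and 28.5. The last of the 5, 1435248-1435724, had 9 fragments and 8.16. The final 3 of these were distal intergenic.

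A weaker peak at 1441908-1442355 had 5 fragments and a fold enrichment of 5.02, with Cor0087720.1 as closest gene. After the largest gap in the run, 50355 bp, a last group of 5 peaks followed. At Cor0087730.1 lay 1492711-1494464 with 40 fragments and a fold enrichment of 10.1, 1494942-1495568 with 77 and 7.21, and 1498836-1501531 with 78 and 10.5. At Cor0087740.1 lay 1507968-1508741 with 48 fragments and 12.02. The run ended at Cor0087750.1 with 1509100-1511476, which had 174 fragments but a fold enrichment of 4.85, with the highest background of the list at 35.1 fragments. Of the 12 Ov2.1 peaks with a background above 1 fragment, 11 lay on tig00007282. The part of this raised background in the run was not tested. No function is given for the run's 8 closest genes in the sources used here.

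The other 9 peaks of tig00007282 resembled the rest of the list. They had 3 to 5 fragments, fold enrichments between 3.24 and 4.86 and widths between 345 and 616 bp, with medians of 3.35 and 458 bp. In the run the medians were 8.85 for the fold enrichment and 1138 bp for the width. At Ov3.1 the stretch held 15 peaks with fold enrichments between 1.72 and 11.4, and 10 of the 16 Ov2.1 peaks overlapped one of them. The background of these Ov3.1 peaks reached 72.8 fragments, against a median of 0.153 over the Ov3.1 list. No Ov1.1 peak lay in the stretch, although 8 lay elsewhere on the contig, with a background of up to 363 fragments. The part of the raised background in the overlap between stages was not tested.

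**Figure D4:**
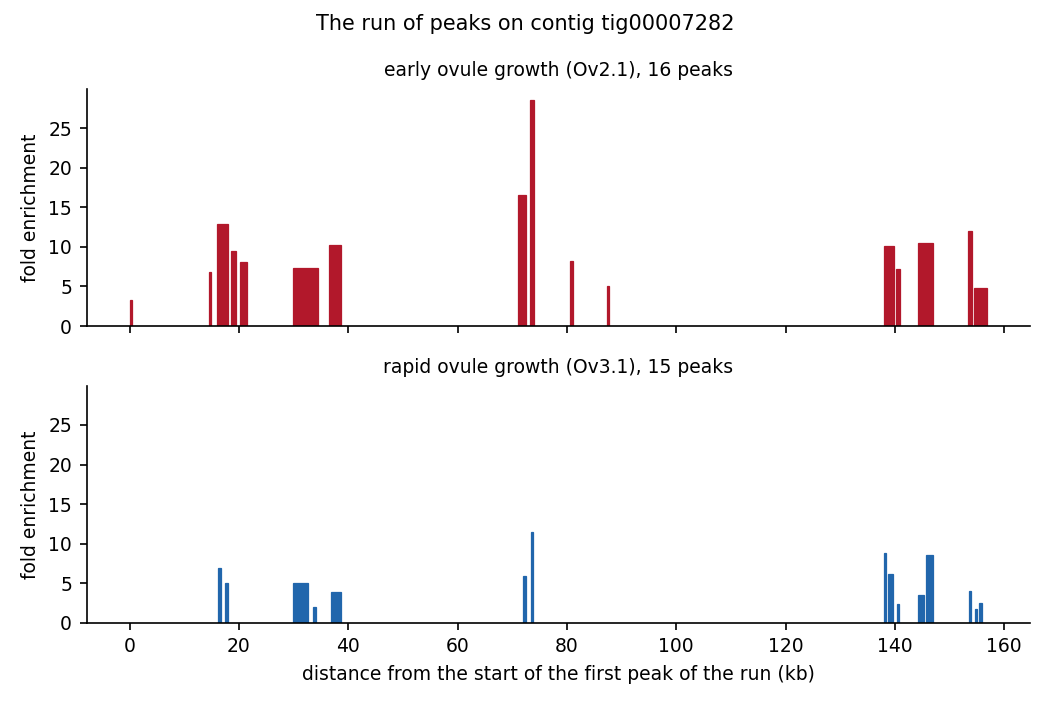
Fold enrichment (vertical axis, linear ratio) of each peak against the distance in kb from the start of the first peak of the run on tig00007282 (horizontal axis), at Ov2.1 above and Ov3.1 below. Each bar is 1 peak drawn to its width with a linewidth added for visibility, and the highest bar at either stage, 28.5 at Ov2.1 and 11.4 at Ov3.1, stands at about the same place.

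Outside tig00007282 only 5 peaks had a fold enrichment of at least 7. The highest was tig00007033:1466985-1467459 with 26 fragments, a fold enrichment of 12.6 and a q-value of 6.47e-23, distal intergenic with Cor0056800.1 as closest gene. The peak tig00006882:1678256-1678577 in an intron had 10 fragments and 9.12. It was followed by tig00007416:521107-521429 with 9 fragments and 7.48, for which no class was held, and by 2 distal intergenic peaks with 8 fragments each, tig00000657:1431249-1432265 with 7.27 and tig00006888:2677648-2678316 with 7.11. None of these 5 had another peak within 100 kb, the nearest being 153737 bp away.

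A genomic class from the annotation of the study was held for 1340 of the 1364 peaks. The classes were joined by position and their values come from the peak list. Distal intergenic peaks were the most numerous at 560, followed by 222 in promoters within 1 kb of a gene start, 162 in introns, 152 in promoters at 1 to 2 kb, 124 in promoters at 2 to 3 kb, 82 in exons and 38 downstream of a gene. Strength varied little between them. The median fold enrichment was 3.94 in promoters within 1 kb (3.86 to 4.01), 3.63 in promoters at 1 to 2 kb (3.35 to 3.80), 3.99 in exons (3.82 to 4.35) and 3.78 in distal intergenic regions (3.55 to 3.92). The intervals of promoters within 1 kb and at 1 to 2 kb did not overlap. Without tig00007282 the 2 medians were 3.93 (3.84 to 3.98) and 3.63 (3.35 to 3.80). This pair was picked among the classes after the values were seen, and the difference was not tested. The median fragment number was 4 in both classes.

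The median width was 483 bp in promoters within 1 kb (451 to 520), 460 bp in distal intergenic regions (438 to 477), 434.5 bp in introns (417 to 460) and 431 bp in promoters at 1 to 2 kb (412 to 464). The share of peaks with another within 10 kb was 12.6% in promoters within 1 kb (8.55% to 17.7%), 14.6% in exons (7.80% to 24.2%) and 7.68% in distal intergenic regions (5.61% to 10.2%), with overlapping intervals. A peak inside a gene was not always assigned to it. Of the 82 exon peaks, 29 lay in a gene other than the closest gene they were assigned to, and so did 41 of the 162 intron peaks.

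The study linked the genes closest to these peaks to phenylpropanoid biosynthesis, plant hormone signal transduction, alpha-linolenic acid metabolism, circadian rhythm, plant-pathogen interaction, starch and sucrose metabolism, peroxisome and brassinosteroid biosynthesis, among other pathways. From its candidate genes and from its list of Ov2.1 target genes whose RNA level was lower at the later stage, 84 genes were grouped by annotated function. They had 87 Ov2.1 peaks. All 84 have a peak because they were taken from the targets, and since the study chose many of them by expression, they are not an independent sample of the list. Their peaks had a median fold enrichment of 3.64 (3.35 to 3.93), against 3.86 over all peaks. A value of at least 4 was reached by 29 of 87, or 33.3% (23.6% to 44.3%), against the 41.6% of the whole list. By group the medians ran between 3.23 in the bHLH genes and 4.60 in the TCP and FT-interacting genes, on 2 to 12 peaks each. Except in the cell wall genes, the interval of a group's share at a fold enrichment of at least 4 held the 41.6%. As many as 39 of the 87 rested on 3 fragments, and no gene of these groups lay in the run on tig00007282. Names follow the annotation of the study, and roles are known from Arabidopsis unless stated.

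The auxin genes covered synthesis, transport, response and release of the hormone. They had 7 peaks with fold enrichments between 3.13 and 4.61, of which 2 were at least 4. PIN7 (Cor0204530.1), an auxin efflux carrier, had the highest at 4.61 with 5 fragments, tig00006953:89084-89409, in a promoter at 1 to 2 kb. ChARF8 (Cor0192010.1), another hazel auxin response factor, had 4.49 with 5 fragments at tig00007053:34541-34962, also at 1 to 2 kb. YUC10 (Cor0179200.1), an enzyme of auxin synthesis, had 3.34 with 3 fragments at tig00006933:343271-343864, and IAA4 (Cor0086990.1), an Aux/IAA repressor, 3.33 with 3 fragments at tig00007265:2124156-2124490. Both were distal intergenic. SAUR32 (Cor0036810.1), of the small auxin-up RNA family, had 3.13 with a q-value of 0.0498, at the limit of the list. The ILR1-like genes encode hydrolases that free auxin from conjugates. The peak of Cor0011160.1 had 3.93 and that of Cor0047570.1 had 3.26.

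The MADS-box genes, which encode regulators of flowering and floral organ identity, had 5 peaks, and 0 of 5 reached a fold enrichment of 4 (interval 0% to 52.2%, which holds the 41.6% of the whole list). STK (Cor0188960.1), which specifies ovule identity, had 3 fragments and 3.33 in the promoter within 1 kb, tig00007049:369060-369571, and this was the only Ov2.1 peak on its contig. AGL21 (Cor0032980.1), known from root development, had 2 peaks 7254 bp apart, tig00007253:1807133-1807620 in an intron with 3.498 and tig00007253:1814875-1815334 in the promoter within 1 kb with 3.64, both with 4 fragments. SOC1 (Cor0152090.1), which promotes flowering, had 3.98 and MFO1 (Cor0152110.1), named for a floral regulator of rice, had 3.14. Both peaks were distal intergenic and lay 51324 bp apart on tig00007107 with no peak between them.

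Among the ethylene response factors, ERF4 (Cor0221350.1), a repressor of ethylene responses, had 2 peaks in the same promoter. The peak within 1 kb, tig00000191:92537-92908, had 5 fragments and a fold enrichment of 4.84, and the one at 2 to 3 kb, tig00000191:89673-89991, had 4 and 4.10, with 2545 bp between them. A second gene annotated ERF4 (Cor0108860.1) had 3.35 in its promoter within 1 kb. ERF1A (Cor0220710.1) had 3.35 and ERF1B (Cor0068280.1), an activator of ethylene responses, 3.18, each with 3 fragments.

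The TCP and FT-interacting genes had the highest median of the groups, but with only 4 peaks of 3 to 6 fragments. TCP14 (Cor0120020.1), a regulator of cell proliferation, had 6 fragments and 5.07 in a promoter at 1 to 2 kb, tig00006870:702642-703168. The gene for FT-interacting protein 7 (Cor0024610.1), named for a protein of rice, had 5 fragments and 5.02 in a promoter at 2 to 3 kb, and that for FT-interacting protein 3 (Cor0209610.1) had 4 fragments and 4.18 in the promoter within 1 kb. TCP18 (Cor0043840.1), a repressor of branching, had 3.16 at a distal intergenic site.

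Of the 5 MYB peaks, 3 rested on 3 fragments. A pair of neighbouring genes annotated MYB4, a repressor of phenylpropanoid genes, each had a distal intergenic peak on tig00006975. That of Cor0042490.1 had 3.35 and that of Cor0042500.1 had 4.18, and they lay 20197 bp apart. KUA1 (Cor0190170.1) had 3.16, MYB86 (Cor0134090.1) 3.21 and MYB97 (Cor0212450.1), which acts in pollen tubes, 3.93. All 5 bHLH peaks were distal intergenic, and the highest was that of LHW (Cor0188090.1), a regulator of vascular development, with 4.74. Those of bHLH35 (Cor0128360.1), bHLH111 (Cor0007180.1), bHLH62 (Cor0104710.1) and bHLH106 (Cor0022460.1) had 4.66, 3.23, 3.19 and 3.13, the last being the lowest value of the list.

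Among 6 other regulators 4 reached a fold enrichment of 4 (66.7%, interval 22.3% to 95.7%, which holds the 41.6% of the whole list). LSH6 (Cor0123880.1), of the organ boundary family, had 4.89, SPL13A (Cor0008160.1), of the SQUAMOSA promoter-binding family, 4.42, SEUSS (Cor0034460.1), a co-repressor in flower and ovule development, 4.10 within its own intron, and HSFB4 (Cor0059400.1), a heat stress factor, 4.01 within its own intron. The peak of ATHB-8 (Cor0051420.1), a vascular homeodomain factor, had 3.13. PHL7 (Cor0184340.1) had 3.63, and that peak lay in an exon of the neighbouring gene Cor0184330.1.

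**Figure D5:**
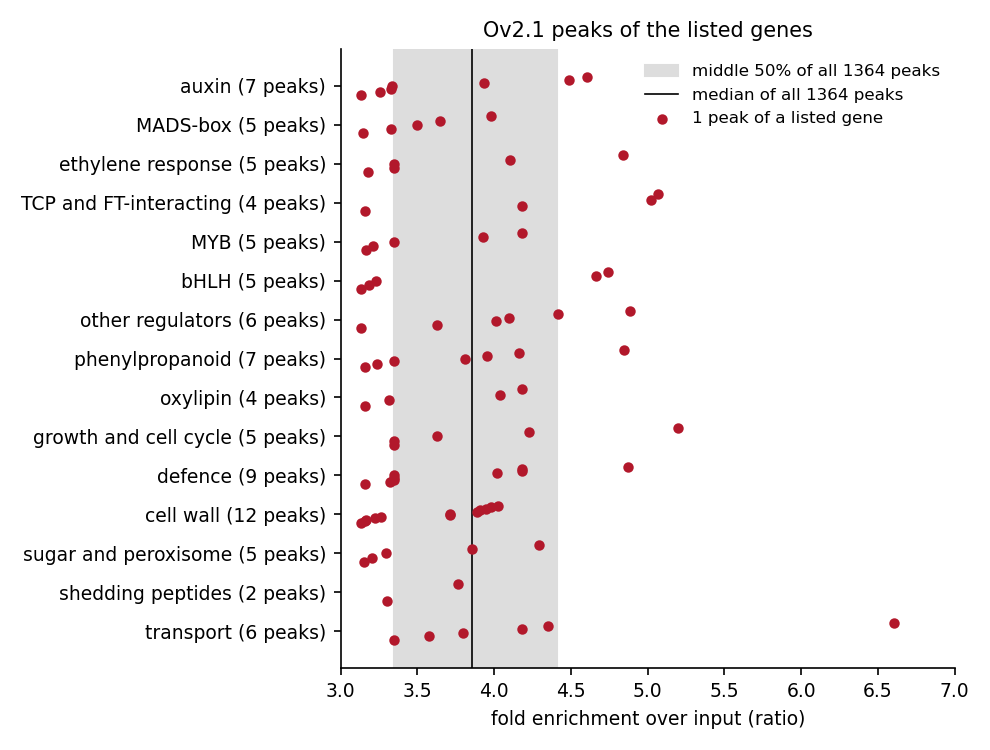
Fold enrichment (horizontal axis, linear ratio) of the 87 Ov2.1 peaks of the listed genes by group (vertical axis), 1 point per peak, spread within a row for visibility. The grey band is the middle 50% of all 1364 peaks (3.35 to 4.41) and the line their median of 3.86, and only the PHO1 homolog 3 peak at 6.61 lies far beyond the band.

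The phenylpropanoid genes make precursors of lignin, flavonoids and related compounds, and 2 of their 7 peaks reached a fold enrichment of 4. CAD1 (Cor0200480.1), a cinnamyl alcohol dehydrogenase of lignin synthesis, had 4.85 with 5 fragments in the promoter within 1 kb, tig00006904:176139-176766. Dirigent protein 21 (Cor0023960.1) had 4.16 and chalcone isomerase (Cor0018150.1), of flavonoid synthesis, 3.95 in the promoter within 1 kb. Caffeoylshikimate esterase (Cor0135280.1) had 3.81. Peroxidase 53 (Cor0024170.1), trans-cinnamate 4-monooxygenase (Cor0222910.1) and laccase-9 (Cor0029870.1) had 3 fragments each, with 3.35, 3.24 and 3.16.

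The oxylipin genes belong to the metabolism of alpha-linolenic and linoleic acid, and jasmonate is made from alpha-linolenic acid. Linoleate 9S-lipoxygenase 5 (Cor0125880.1) had 4.18, and allene oxide synthase 1 (Cor0023860.1), the first enzyme of the jasmonate branch, 3.31. Jasmonate O-methyltransferase (Cor0155220.1) had 2 peaks 15203 bp apart on tig00006994, a distal intergenic one with 4.04 and one in its own intron with 3.16.

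Among the genes of growth and cell division, cytokinin dehydrogenase 3 (Cor0132830.1), which degrades cytokinin, had 6 fragments and a fold enrichment of 5.19 in a promoter at 2 to 3 kb, tig00007203:1303097-1303607. Cyclin-D3-3 (Cor0060620.1), which drives entry into the cell cycle, had 4.23 in a promoter at 1 to 2 kb, and cyclin-J18 (Cor0151050.1) had 3.35. CYP78A5 (Cor0142890.1), which promotes the growth of flowers and seeds, had 3.63, and its relative CYP78A3 (Cor0157180.1) had 3.35 in an intron of the neighbouring gene Cor0157170.1.

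Of the 9 defence peaks, 4 reached a fold enrichment of 4. The chitinase genes, whose products break down fungal cell walls, lay along tig00007002 and had a distal intergenic peak each. Chitinase 3 (Cor0005970.1) had 4.87 with 5 fragments, and chitinase 2 (Cor0005980.1) and endochitinase C (Cor0005940.1) had 3.35 with 3. The widest peak of any listed gene, 1206 bp at tig00007253:176785-177990, lay in an exon of PR-1 (Cor0032170.1), a pathogenesis-related gene, with 4 fragments and 4.18. MLO1 (Cor0182940.1) and MLO6 (Cor0017530.1), of a family known from mildew susceptibility in barley, had 4.18 and 3.32, both in their own introns. The resistance genes RGA1 (Cor0141600.1) and RPP13 (Cor0102760.1) had 4.02 and 3.16, and the cyclic nucleotide-gated channel gene CNGC10 (Cor0156570.1) 3.35.

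The cell wall genes were the largest group, 1 of many compared without a test. Their 12 peaks had fold enrichments between 3.14 and 4.02 with 3 to 5 fragments, and 1 of 12 reached 4 (8.33%, interval 0.211% to 38.5%), against 41.6% of the whole list. That 1 was rhamnosyltransferase 1 (Cor0054510.1), with 4.02 in the promoter within 1 kb. Galacturonosyltransferase 12 (Cor0205060.1) had 3.98 and LRX5 (Cor0116860.1) 3.90, also in promoters within 1 kb. Among genes whose products loosen or cut the wall, the values were 3.71 for a xyloglucan endotransglucosylase (Cor0063920.1), 3.71 for a polygalacturonase (Cor0154380.1), 3.16 for endoglucanase 3 (Cor0146940.1), 3.27 for an exopolygalacturonase (Cor0190850.1) and 3.14 for expansin-A8 (Cor0021580.1). The genes for glucan endo-1,3-beta-glucosidase 14 (Cor0179820.1) and 3 (Cor0131140.1) had 3.89 and 3.22 at distal intergenic sites. The peaks of pectinesterase inhibitor 6 (Cor0135310.1), with 3.94, and UDP-glucuronic acid decarboxylase 1 (Cor0001590.1), with 3.17, lay downstream of a gene.

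Among genes of sugar metabolism and the peroxisome, a pair annotated GLO4, a peroxisomal hydroxy-acid oxidase, lay on tig00007171 with peaks of the same width, 365 bp, and 16357 bp apart, both in promoters at 2 to 3 kb. That of Cor0113130.1 had 5 fragments and 4.29 and that of Cor0113110.1 had 3 and 3.21. Alpha-amylase 3 (Cor0011950.1), which breaks down starch, had 3.86 in the promoter within 1 kb, acid beta-fructofuranosidase 2 (Cor0136750.1) 3.29 and beta-xylosidase 2 (Cor0221240.1) 3.15. IDA (Cor0144610.1) and IDA-LIKE 4 (Cor0033920.1) encode peptides of the family that triggers the shedding of floral organs, and their peaks had 3.77 and 3.30.

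The transport group held the strongest peak of any listed gene. It belonged to PHO1 homolog 3 (Cor0092450.1), of a phosphate exporter family, with 8 fragments, a fold enrichment of 6.61 and a q-value of 3.73e-06 in a promoter at 1 to 2 kb, tig00007059:328372-328948. Sulfate transporter 3.5 (Cor0116840.1) had 4.35 in an exon and sulfate transporter 3.1 (Cor0141060.1) 4.18. NPF5.2 (Cor0175050.1), of the nitrate and peptide transporter family, had 3.80, the potassium channel gene AKT6 (Cor0138630.1) 3.57 and the amino acid permease gene AAP3 (Cor0147760.1) 3.35.

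Overlaps of Ov2.1 peaks with those of the other stages were counted by position. How many randomly placed peaks would overlap was not worked out, so the single loci named below are not shown to be bound repeatedly. Of the 1364 peaks, 16 overlapped a peak of another list by at least 1 bp, 14 of them at Ov3.1 and 2 at Ov1.1. Overlaps between the Ov1.1 and Ov3.1 lists were not counted, so the number of overlaps cannot be called a trait of this stage. Without tig00007282, 6 of 1339 Ov2.1 peaks overlapped another list, 4 at Ov3.1 and 2 at Ov1.1. The longest of these overlaps was 493 bp at tig00007354:985426-986144, in an intron, with a fold enrichment of 4.18 at Ov2.1 and 4.54 at Ov3.1, each with 4 fragments. One of the listed genes was among them, trans-cinnamate 4-monooxygenase (Cor0222910.1), an early enzyme of the phenylpropanoid pathway, whose promoter peak tig00002066:22876-23297 had 3.24 with 3 fragments at Ov2.1 and 4.41 with 4 at Ov3.1.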

How the data were processed

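ChIP-Seq of ChARF3 gave 6 libraries, 1 ChIP and 1 input at each of 3 stages. The authors cleaned the reads with the NGS QC Toolkit, mapped them by Bowtie2 and used MACS2 for each stage with a limit of 0.05 on the q-value. Not given in the sources used here are tool versions, genome release, duplicate handling and genome size, any of which can change the number and strength of peaks. Library totals entered no value here, so the depth of a peak means its solved fragment number and not the size of the library.

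In the deposited list, fold enrichment is the ratio of ChIP to input-derived background on a linear scale. The deposited p- and q-values are given as -log10, and q was turned back to a q-value for the text. The deposited peak score is derived from q and was not used. Fragments and background were solved from fold enrichment, taken as (fragments + 1) / (background + 1), and the Poisson probability of more fragments, within 0.01 of -log10 p. The solver and the gap calculation were tested on simulated data.

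Medians carry order-statistic intervals, shares Clopper-Pearson intervals and numbers or densities Poisson intervals, all at 95%. Genomic classes and closest genes were joined by contig, start and end as labels only from the study's annotation, which was held in part. Named are all 84 genes of the functional lists, the 5 highest and 5 widest peaks outside tig00007282, its run and the 5 contigs with most peaks. Other loci, named among close pairs, genes with several peaks, overlaps and dense contigs, were chosen after their values were seen. Members and lists were chosen with earlier results of these data known. Calculations ran in Python 3.11.15 with scipy 1.17.1, pandas 2.3.3 and numpy 2.4.6, and plots were drawn by matplotlib 3.10.9.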

Additional observations from a re-analysis of the deposited data

How the results depend on the processing

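Leaving out contig tig00007282 moved 1 of the main values beyond its counting interval or by over 1.5 times, the number of Ov2.1 peaks that overlap another list, which was 6 in place of 16. A q-value of at most 0.01 gave a median gap of 260860 bp, 5.33% of peaks with another within 10 kb, 3.07% of peaks and 27.2% of summit fragments on tig00007282, a median width of 486 bp and median fold enrichments of 4.51 over all peaks and 4.21 over those of the listed genes. A fold enrichment of at least 4 gave a median gap of 280122 bp, 5.46% within 10 kb, 3.17% of peaks and 28.4% of fragments on the contig, a median width of 492 bp and 8 overlapping peaks. Both limits leave fewer peaks, which lengthens gaps. A window of 5 kb held another peak for 5.21% and one of 50 kb for 36.5% of peaks. Within 1 kb of a peak of another list lay 35 Ov2.1 peaks. Merging peaks less than 1 kb apart was run for the median gap, the share within 10 kb, the share of peaks on tig00007282 and the median width, and each stayed within its interval. With the Poisson probability of at least the observed number, 1286 of 1364 peaks had no whole fragment number within 0.01 of the deposited -log10 p, against 0 with the probability of more than that number, so no share is given for it. No paired analysis was possible because each stage had 1 ChIP and 1 input library. Differences in fold enrichment between single peaks of 3 to 8 fragments were not tested, and the Poisson intervals of these fragment numbers overlap.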
